A study of Mus musculus with 3 samples.

Results

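Corneal RNA from mice whose lacrimal gland had been excised was compared with corneal RNA from sham-operated mice, with 1 sequencing library in each group. In the sham group the area was incised and the glands were left alone. In the excision group the gland was removed. The labels mention eyedrops for neither group. The labels do not give the strain, sex, age, time after surgery or number of corneas behind each library, and in the title of the series the subject is dry eye disease, macrophages and the α7 nicotinic acetylcholine receptor. A gene was taken as measured when it had at least 20 counts in either library, which held for 14000 of the 21760 genes in the deposited table. One more library, from mice given PNU-282987 eyedrops 3 times a day, is quoted only for its own values beside the pair, and the labels do not say whether those mice had lost the gland.

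The cornea is a stratified epithelium over a collagen stroma that is made by keratocytes, with an inner endothelial monolayer that pumps water out. The lacrimal gland supplies the aqueous part of the tear film, and its removal in mice is a surgical model of aqueous-deficient dry eye. Interferons are secreted proteins that act through paired receptors and the kinases JAK1 and TYK2. The kinases activate STAT factors, and STAT2 with its partner IRF9 takes part in switching on genes that carry an interferon-stimulated response element in their promoters. Lambda interferons use a receptor that is found mainly on epithelial cells.

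Levels are given as counts, or as CPM, the usual depth-normalized count unit, here after scaling for library composition with TMM. Ratios are of scaled counts with nothing added, and each comes with a 95% interval in square brackets that covers counting error only. A gene is called higher or lower where the ratio was 2-fold or more and the interval did not include equal levels. With 1 library per group there is no measure of the spread between mice or between repeat preparations, no test was possible, and every difference below is between 2 libraries. In RNA from whole tissue, fewer cells of a type and less RNA per cell cannot be told apart.

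Total counts were 37703843 in sham and 37692972 in excision, so the 2 libraries were of nearly the same depth. The keratin gene Krt12, which marks corneal epithelium, was the most abundant gene in each and took 4.09% of sham and 3.01% of excision counts. Keratocyte genes were present in both (Kera had 7395 and 3217 counts), as were the endothelial genes listed further on. The goblet cell mucin gene Muc5ac, a conjunctival marker, had 1 and 11 counts. Of 10 measured genes on the list of lacrimal and other glands 2 were lower, both measured only through sham, and none higher. The summed level of that list was 12443 and 12772 CPM in sham and excision, most of it from Aqp5 and Mal, which corneal epithelium also expresses, while the secretory genes Scgb2b2 and Esp15 had no count in either.

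The bulk of the transcriptome was close between the 2 libraries and the differences sat in its tails. The middle 50% of measured genes lay between log2 ratios of -0.24 and 0.24, with a median of -0.00. Called higher in excision were 557 genes (3.98% of those measured), and 759 were called lower (5.42%). A ratio of at least 4-fold was reached by 177 and 275 of them, and one of at least 16-fold by 26 and 31. The genes called higher held 0.790% of the counts in sham and 2.18% in excision, and the genes called lower 0.835% and 0.237%. Calls were most frequent among scarce transcripts: below a mean of 1 CPM, 16.7% of 1504 genes were higher and 22.9% lower, and above 100 CPM these shares were 1.42% and 0.590% of 1696 genes. Of the genes called higher, 263 met the count minimum only through excision, and of those called lower, 382 only through sham. Such genes had to differ, so beside the counts of a list that holds called members of this kind their number is given. At the minimum itself, 30 of the 78 genes whose larger count was 20 were called, and 29 of the 91 genes just under it, at 19, would have been.

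**Figure D1:**
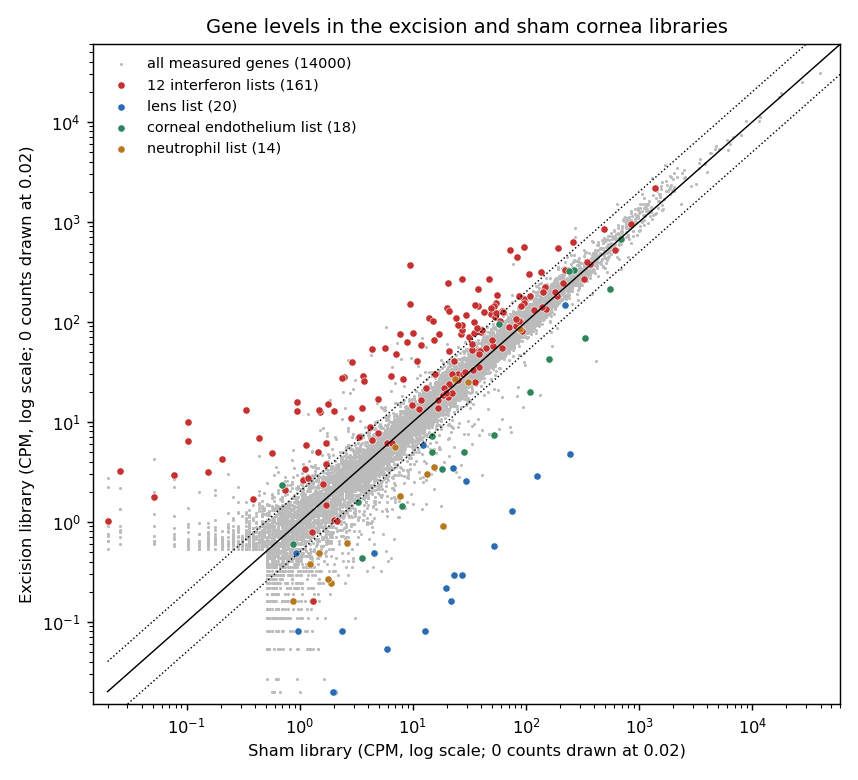
Level of each of the 14000 measured genes in sham (x axis) and excision (y axis), in CPM on log scales, with the line of equal levels and dotted lines at 2-fold. Most genes lie along the line, members of the 12 interferon lists (red) lie mainly above it, and members of the lens (blue), endothelium (green) and neutrophil (brown) lists mainly below it.

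Interferon-inducible families made the clearest block of genes that were higher after gland excision. In 12 lists of interferon mediators, feedback genes, sensors, effectors and class I presentation, 161 genes were measured, 11 of them only through excision, and 90 were higher and 2 lower. They made up 16.2% of all genes called higher. Their share of all counts was 1.06% (sham), 1.88% (excision) and 1.06% (PNU-282987). The lists were drawn up with earlier results of these libraries known, so their direction is not independent evidence.

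Among the ligands, transcripts of lambda interferon genes were found in excision alone. Ifnl2 (gene ID 330496) had 0 sham, 101 excision and 0 PNU-282987 counts. Ifnl3, its near-identical neighbour, had 0 sham, 82 excision and 0 PNU-282987 counts, and reads could be exchanged between the pair. Against the floor of 3 counts in sham, which is 0.0768 CPM, Ifnl2 was 35.4-fold higher and Ifnl3 28.8-fold higher. The interval of Ifnl2 began at 28.3-fold and had no upper end. Other interferon genes stayed under the count minimum: Ifnb1, of interferon beta, had 0 sham and 4 excision counts, and Ifng, the type II interferon gene of T and NK cells, had 0 sham and 1 excision counts. None of these counts can show where in the tissue the transcripts arose.

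The receptors differed little. None of 6 was called in either direction, and their log2 ratios ran from -0.38 to 0.15. Ifnlr1, the lambda-specific chain, had 1165 sham, 1226 excision and 1191 PNU-282987 counts. Il10rb, its partner chain, had 1258 sham, 1006 excision and 1390 PNU-282987 counts. The type I receptor genes Ifnar1 (1080 and 887 counts in sham and excision) and Ifnar2 (311 and 277 counts) were likewise within 2-fold, as was Ifngr1 (3144 and 2564 counts). The receptor kinase genes Jak1 (7288 and 6723 counts) and Tyk2 (1130 and 1159 counts) stayed within 2-fold too.

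Downstream of the kinases, the genes of STAT2 and its partner IRF9 were both higher. Stat2 (gene ID 20847) had 1064 sham, 3448 excision and 980 PNU-282987 counts (3.41-fold higher in excision [3.18 to 3.66]). Irf9 (gene ID 16391) had 2129 sham, 4559 excision and 1742 PNU-282987 counts (2.25-fold higher in excision [2.14 to 2.37]). For both genes sham and PNU-282987 were closer to each other than either was to excision, which was highest. Stat3, which many cytokines activate, was within 2-fold (4577 and 4849 counts). Of 11 measured interferon regulatory factor genes 3 were higher. Irf7, which amplifies the response, had 5240 sham and 11649 excision counts (2.34-fold higher [2.26 to 2.42]), and Irf8 of myeloid cells had 46 sham and 102 excision counts (2.33-fold higher [1.63 to 3.38]). Irf3, which acts directly below the nucleic acid sensors, had 2400 and 2015 counts, and Irf1 had 13565 and 14606 counts, both within 2-fold.

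Of the feedback inhibitors, 2 of 11 measured genes were higher. Usp18, which removes ISG15 from proteins and blocks the type I receptor, had 302 sham, 2822 excision and 337 PNU-282987 counts (9.83-fold higher in excision [8.73 to 11.1]). Socs1, which inhibits the JAK kinases, had 66 sham, 141 excision and 43 PNU-282987 counts (2.25-fold higher in excision [1.67 to 3.06]). Socs3 had 50 and 29 counts and Socs2 79 and 39 counts in sham and excision, and neither was called. Under scaling to totals or to epithelial genes Socs2 was called lower. Cish and Socs4 to Socs7 lay between log2 ratios of -0.26 and 0.31.

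The promoters of the genes called higher were searched for the interferon-stimulated response element in RefSeq sequences of assembly GRCm38.p6, from 250 bases before to 50 bases after each gene's start. The letters searched were GAAA, any 2 bases and GAAA again, on both strands, so TTTC, any 2 bases and TTTC mark a match on the other strand, and neighbouring matches may overlap. Of 14000 measured genes 11090 had a promoter entry. The motif was present in 3.99% of all 27025 promoters and in 3.65% of those of measured genes. It was present in 59 of 402 promoters of genes called higher (14.7%) and in 17 of 584 of genes called lower (2.91%). Among the interferon list members called higher it was present in 39 of 70 (55.7%), among the members of these lists within 2-fold in 11 of 58 (19%), and among the genes called higher outside these lists in 20 of 332 (6.02%). For the gamma-activated site TTCNNNGAA the shares were closer together, at 9.55% of all promoters, 10.4% of genes called higher and 8.22% of genes called lower. Interferon list members carried this site more often than the 8.23% of measured genes, whether or not they were called. It was present in 12 of 70 called higher (17.1%) and in 12 of 58 within 2-fold (20.7%). A match is a run of letters, not evidence that a factor bound there. The stretches below show the element in 6 genes of the response, chosen after their values were seen, with the motif in capitals and 20 bases to each side.
Isg15, chr4:156200855-156200916, minus strand: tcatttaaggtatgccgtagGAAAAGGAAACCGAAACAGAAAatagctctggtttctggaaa
Ifit1, chr19:34640765-34640833, plus strand: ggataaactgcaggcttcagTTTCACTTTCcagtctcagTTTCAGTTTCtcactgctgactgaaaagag
Ifit3, chr19:34583353-34583436, plus strand: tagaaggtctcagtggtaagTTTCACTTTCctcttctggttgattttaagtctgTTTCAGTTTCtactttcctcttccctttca
Rsad2, chr12:26456543-26456592, minus strand: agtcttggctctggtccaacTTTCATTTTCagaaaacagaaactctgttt
B2m, chr2:122147528-122147577, plus strand: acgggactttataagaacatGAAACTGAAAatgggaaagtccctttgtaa
Stat2, chr10:128270256-128270305, plus strand: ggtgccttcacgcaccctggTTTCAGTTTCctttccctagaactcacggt
Isg15 carried 3 overlapping copies, starting 78 bases before the gene's start, and Ifit1 and Ifit3 carried 2 separate copies each. In Rsad2, B2m and Stat2 the single copy started 120, 139 and 222 bases before the start.

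Of 15 measured genes for cytosolic sensors of RNA and DNA, 10 were higher and 1 was lower (median log2 ratio 1.26). Ifih1, which encodes the long double-stranded RNA sensor MDA5, had 1580 sham and 3050 excision counts (2.03-fold higher [1.91 to 2.16]), a call that was lost when counts were scaled to totals or to epithelial genes. Its regulator Dhx58 had 601 sham and 2418 excision counts (4.23-fold higher [3.87 to 4.64]). Zbp1, a sensor of left-handed nucleic acid, had 593 sham and 3798 excision counts (6.74-fold higher [6.18 to 7.36]). Mavs, the adaptor that the RNA sensors share, was within 2-fold (2751 and 3291 counts in sham and excision), as was the endosomal RNA receptor gene Tlr3 (442 and 685 counts). On the DNA-sensing side, Cgas had 169 and 244 counts, and Sting1, its adaptor, was the one lower member with 84 and 38 counts (2.1-fold lower [1.42 to 3.17]). The PYHIN family of interferon-inducible DNA-binding proteins was higher in all 6 genes measured, 1 of them only through excision, although Ifi204 (2369 and 4706 counts) lost its call under the same scalings. In it Ifi203 had 37 sham and 583 excision counts (16.6-fold higher [11.9 to 23.8]), Ifi211 59 sham and 466 excision counts (8.31-fold higher [6.33 to 11.1]) and Mndal 140 sham and 1069 excision counts (8.03-fold higher [6.73 to 9.65]). These genes resemble one another and may exchange reads.

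The oligoadenylate synthetases make a signalling molecule upon meeting double-stranded RNA. Of 8 measured genes in their list 6 were higher. Oas2 had 804 sham, 9010 excision and 318 PNU-282987 counts (11.8-fold higher in excision [11 to 12.7]), Oas3 had 773 sham and 5048 excision counts (6.87-fold higher [6.37 to 7.42]) and Oas1g had 143 sham and 958 excision counts (7.05-fold higher [5.91 to 8.46]). Oas1c was within 2-fold at 799 and 662 counts. In the IFIT family, which binds foreign RNA, Ifit1 had 1063 sham, 9905 excision and 809 PNU-282987 counts (9.8-fold higher in excision [9.2 to 10.5]) and Ifit3 2789 sham, 19605 excision and 2236 PNU-282987 counts (7.4-fold higher in excision [7.11 to 7.7]). Ifit1bl1, a further family member, was within 2-fold at 53996 and 80326 counts. Of the membrane-restriction IFITM genes Ifitm3 was higher (1055 and 3081 counts, 3.07-fold higher [2.86 to 3.3]), while Ifitm1 (33155 and 35110 counts) and Ifitm2 (3568 and 3018 counts) were within 2-fold.

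GTPases that attack pathogen-containing vacuoles were a further block of higher genes. All 16 measured members of the immunity-related GTPase and guanylate-binding protein list were higher, of 20 in the table, and 4 of the 16 were measured only through excision. Tgtp2 had 1 sham, 119 excision and 1 PNU-282987 counts, and Tgtp1 4 sham, 238 excision and 7 PNU-282987 counts. This near-identical pair can exchange reads. Gbp9, with 96 sham and 1030 excision counts, was 11.3-fold higher [9.15 to 14.1], Gbp6 (37 and 478 counts) was 13.6-fold higher [9.72 to 19.5] and Gbp4 (393 and 2891 counts) was 7.74-fold higher [6.96 to 8.62]. Irgm1, the regulatory member, had 1475 sham and 5291 excision counts (3.77-fold higher [3.56 to 4.0]). The smallest ratio in the list was that of Gbp2 (2093 and 4176 counts, 2.1-fold higher [1.99 to 2.21]), which dropped below 2-fold when counts were scaled to totals or to epithelial genes. All 7 Schlafen genes, which restrict translation and cell growth, were higher too, 3 of them measured only through excision. Slfn5 had 4 sham, 370 excision and 18 PNU-282987 counts (97.3-fold higher in excision [37.7 to 359]), Slfn4 had 367 sham, 5556 excision and 77 PNU-282987 counts (15.9-fold higher in excision [14.3 to 17.7]) and Slfn2, the best covered after it, had 820 sham and 4779 excision counts (6.13-fold higher [5.69 to 6.61]).

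The ubiquitin-like protein ISG15 is attached to other proteins by its own enzyme cascade. Isg15 (gene ID 100038882) had 3731 sham, 20819 excision and 1732 PNU-282987 counts (5.87-fold higher in excision [5.67 to 6.08]). Its ligase gene Herc6 had 1037 sham and 2811 excision counts (2.85-fold higher [2.65 to 3.07]) and its conjugating enzyme gene Ube2l6 1430 sham and 3180 excision counts (2.34-fold higher [2.2 to 2.49]), and the activating enzyme gene Uba7 was within 2-fold (2288 and 3804 counts). Rnf213, a large ubiquitin ligase of the interferon response, had 1465 sham and 7896 excision counts (5.67-fold higher [5.36 to 6.0]). Of 8 interferon-linked PARP genes, which modify proteins with ADP-ribose, Parp14 alone was called (1650 and 4636 counts, 2.96-fold higher [2.79 to 3.13]), although 7 of the 8 lay above equal levels (6 when scaled to totals or to epithelial genes).

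Of 35 measured antiviral effector genes, 21 were higher and 1, measured only through sham, was lower (median log2 ratio 1.48). Ifi27l2a (gene ID 76933) had 370 sham, 13664 excision and 118 PNU-282987 counts (38.9-fold higher in excision [35 to 43.2]). Cmpk2, a mitochondrial nucleotide kinase, had 113 sham and 1480 excision counts (13.8-fold higher [11.4 to 16.8]), and its chromosomal neighbour Rsad2, which encodes viperin, had 170 sham and 2005 excision counts (12.4-fold higher [10.6 to 14.6]). Trim30d (92 and 1013 counts) was 11.6-fold higher [9.35 to 14.5], Ifi44 (222 and 2041 counts) was 9.67-fold higher [8.42 to 11.2] and Sp110 (58 and 491 counts) was 8.91-fold higher [6.77 to 11.9]. Bst2, the tetherin gene that holds budding virus at the membrane, had 425 sham and 1504 excision counts (3.72-fold higher [3.34 to 4.16]). Plscr2, a scramblase gene, was lower (51 and 6 counts, 8.08-fold lower [3.47 to 23]). Ifi27 (5415 and 5184 counts), Plscr1 (869 and 725 counts) and Pnpt1 (727 and 687 counts) were within 2-fold, so not every gene of this list was high in excision.

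**Figure D2:**
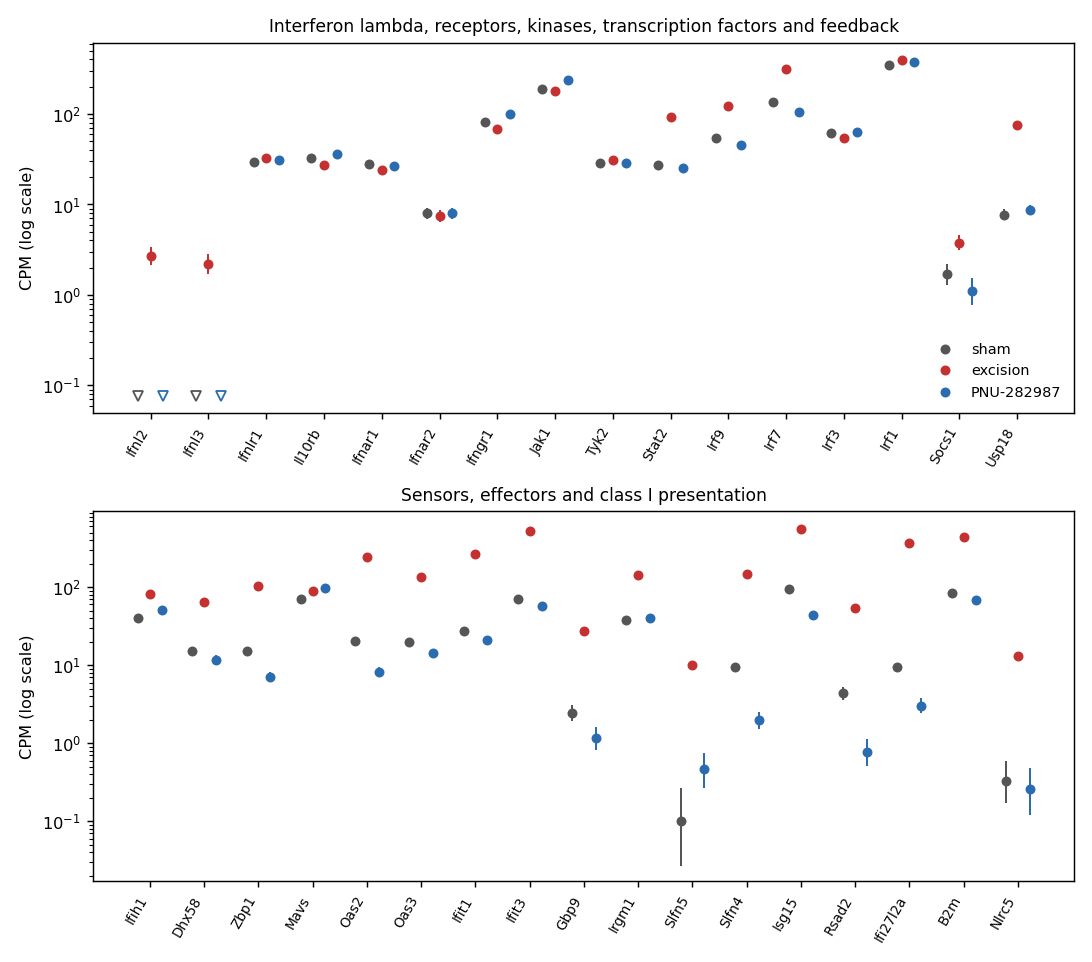
CPM (log scale) of genes of the interferon pathway in sham (grey), excision (red) and PNU-282987 (blue), 1 library each, with 95% counting intervals as bars and open triangles for 0 counts. Receptors and kinases lie within 2-fold of each other, whereas Stat2, Irf9, Usp18 and most effectors are highest in excision.

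Antigen presentation by MHC class I was higher in part. Of 24 listed genes, 23 were measured, 12 were higher and none lower, and 3 were measured only through excision. Scaling to totals or to epithelial genes left 10 higher. The median log2 ratio of 1.01 became 0.73 where both libraries had to reach the minimum. B2m (gene ID 12010), the light chain shared by all class I molecules, had 3264 sham, 16512 excision and 2657 PNU-282987 counts (5.32-fold higher in excision [5.13 to 5.53]). H2-K1, a classical heavy chain, had 10176 sham and 23382 excision counts (2.42-fold higher [2.36 to 2.47]), while H2-D1 was under 2-fold at 18933 and 31371 counts. Nlrc5 (gene ID 434341), the transcriptional activator of this gene set, had 13 sham, 489 excision and 10 PNU-282987 counts (39.6-fold higher in excision [22.9 to 74.9]). The non-classical genes H2-T24 (3 and 109 counts, 38.2-fold higher [12.7 to 188]) and H2-Q7 (2 and 66 counts, 34.7-fold higher [9.24 to 293]) were near 0 in sham, and class I genes can exchange reads with one another. The peptide transporter genes Tap1 (1345 and 3658 counts, 2.86-fold higher [2.69 to 3.05]) and Tap2 (1341 and 2842 counts, 2.23-fold higher [2.09 to 2.38]) and the immunoproteasome subunit gene Psmb9 (1224 and 2594 counts, 2.23-fold higher [2.08 to 2.39]) were higher. The general chaperones of the loading complex were not: Calr had 14262 and 13952 counts and Pdia3 12572 and 9859 counts. In class II, which professional antigen-presenting cells use, 5 of 9 measured genes were higher, 1 of them measured only through excision. Among them were the activator gene Ciita (6 and 25 counts, 4.38-fold higher [1.76 to 13.1]) and Cd74 (282 and 2297 counts, 8.57-fold higher [7.57 to 9.73]).

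Markers of macrophages and of T and NK cells included genes that were higher in excision. Of 20 measured macrophage and monocyte genes 9 were higher and none lower, 3 of the 9 measured only through excision. The summed level of all 23 members in the table was 244 CPM (sham), 364 (excision) and 257 (PNU-282987). Csf1r, the receptor macrophages need to survive, had 50 sham and 105 excision counts (2.21-fold higher [1.56 to 3.16]), and Spi1, their master transcription factor gene, 41 sham and 87 excision counts (2.23-fold higher [1.52 to 3.32]). Adgre1, which encodes F4/80, had 22 sham and 37 excision counts (1.77-fold higher [1.02 to 3.15]), and Cd68 had 494 sham and 834 excision counts (1.78-fold higher [1.59 to 1.99]), and both were under 2-fold. The 5 measured T and NK cell genes were all higher, but all 5 were measured only through excision, so the count minimum fixed their direction. Without the minimum, 16 of 17 T and NK cell genes in the table had more counts in excision, and 9 had none in sham. Their summed level was 0.691 CPM in sham and 7.89 CPM in excision. Of 5 measured dendritic and Langerhans cell genes 2 were higher, Irf8, given above, and, measured only through excision, Itgax (7 and 33 counts). The median log2 ratio of this list was 0.16, and -0.16 where both libraries had to reach the minimum. Its summed level was 586 CPM in sham and 409.7 CPM in excision, most of it from Cd24a (19625 and 12698 counts) and Epcam (2771 and 1875 counts), which epithelium also expresses. Of 4 measured mast and B cell genes Hdc, measured only through sham, was lower (22 and 0 counts).

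Among the chemokine genes, 5 of 15 measured were higher and 3 lower, and 3 of the 5 were measured only through excision and all 3 of the lower only through sham. Of all measured genes 3.98% were higher and 5.42% lower, and of those below a mean of 1 CPM 16.7% and 22.9%. Ccl5 (5 and 73 counts) and Cxcl9 (1 and 29 counts), which attract T cells, and Ccl6 (30 and 95 counts) and Ccl9 (6 and 26 counts), of myeloid cells, were on the higher side. Ccl21a, a lymphatic chemokine with near-identical copies, had 59 sham and 310 excision counts (5.53-fold higher [4.17 to 7.43]). Ccl28, a mucosal epithelial chemokine, was lower (28 and 4 counts, 6.65-fold lower [2.33 to 26.1]), as were the neutrophil attractants Cxcl1 (100 and 13 counts) and Cxcl2 (225 and 19 counts). Cxcl10, which interferon induces in many cells, had 0 sham and 18 excision counts and stayed under the count minimum. Of 4 measured chemokine receptor genes, Ccrl2 was higher (63 and 322 counts, 5.38-fold higher [4.09 to 7.16]).

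The interleukin-1 family held a group of lower genes. The IL-36 cytokines are made by stressed epithelium, and 3 of their 4 genes were lower by a similar factor. Il1f6 had 129 sham and 48 excision counts (2.55-fold lower [1.82 to 3.64]), Il1f8 402 sham and 140 excision counts (2.73-fold lower [2.25 to 3.33]) and Il1f9 2183 sham and 765 excision counts (2.71-fold lower [2.5 to 2.95]). Il1f5, which encodes the antagonist of their receptor, had 479 and 261 counts, below sham but under 2-fold, and the receptor gene Il1rl2 had 1202 and 1763 counts. Il17c, a further epithelial cytokine gene named after its values were seen, was lower in the same direction (214 and 28 counts, 7.26-fold lower [4.89 to 11.2]). Il1r2, the decoy receptor for interleukin-1, was higher (181 and 361 counts, 2.1-fold higher [1.75 to 2.52]), but under 2-fold when scaled to totals or to epithelial genes. Il1a (2134 and 1194 counts) and Il18 (5534 and 5150 counts) were within 2-fold.

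In the TNF superfamily, Tnfsf10, which encodes the death ligand TRAIL, was higher with 72 sham, 614 excision and 308 PNU-282987 counts (8.97-fold higher in excision [7.02 to 11.6]). Tnf (816 and 352 counts) and the receptor gene Tnfrsf19 (181 and 57 counts, 3.02-fold lower [2.23 to 4.14]) were lower, and the other 20 measured members were within 2-fold. NF-kB subunit and inhibitor genes were close to equal: 17 of 18 were within 2-fold, with Rela at 2059 and 2440 counts and Nfkbia at 2604 and 1751 counts, and the one call, Nfkbid (12 and 24 counts), was of a gene measured only through excision and was lost under the same scalings. None of 15 measured Toll-like receptor and adaptor genes was called. Of 19 cell death and inflammasome genes 2 were higher and 1 lower, with Casp1 measured only through excision and Gsdma only through sham. Casp1, the protease that matures interleukin-1β, had 3 sham, 99 excision and 196 PNU-282987 counts (34.7-fold higher in excision [11.5 to 171]), and Nlrp1b, an inflammasome sensor gene, had 47 sham and 152 excision counts (3.4-fold higher [2.44 to 4.83]). For Casp1 the sham library was the one that stood apart, since excision and PNU-282987 both had counts far above it. Gsdma, a pore-forming gasdermin gene, was lower (39 and 15 counts, 2.47-fold lower [1.33 to 4.83]).

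Of 18 measured complement genes 7 were higher and 1 lower, and 4 of the 18 were measured only through excision. The 3 chains of C1q, which macrophages make, were higher, with C1qa at 80 and 260 counts (3.42-fold higher [2.65 to 4.45]) as the largest ratio. C2 (22 and 64 counts, 3.06-fold higher [1.86 to 5.22]), C4b (18 and 44 counts, 2.57-fold higher [1.46 to 4.73]) and Cfb (18 and 53 counts, 3.1-fold higher [1.79 to 5.62]), which form the convertases, were higher on low counts. C3 itself had 184 and 130 counts and was within 2-fold. Cd59a, the surface inhibitor of the membrane attack complex, was lower (21.9 sham and 7.81 excision CPM, 2.8-fold lower [2.45 to 3.21]), and Cd46, a surface cofactor, was higher on few counts (9 and 22 counts).

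Most measured genes of the neutrophil list were lower in excision. Of 19 neutrophil genes that the table holds, 14 were measured, 5 only through sham, and 10 were lower and none higher. The genes of the primary granule, which are transcribed in immature neutrophils of the bone marrow, were lower by nearly the same factor. Elane, for neutrophil elastase, had 602 sham, 132 excision and 156 PNU-282987 counts (4.33-fold lower in excision [3.59 to 5.27]). Mpo, for myeloperoxidase, had 515 sham, 112 excision and 131 PNU-282987 counts (4.37-fold lower in excision [3.56 to 5.41]). Prtn3 (299 and 67 counts, 4.24-fold lower [3.24 to 5.61]) and Ctsg (102 and 23 counts, 4.22-fold lower [2.66 to 6.95]) had log2 ratios of -2.08 and -2.08, beside -2.12 and -2.13 for the other two. Excision and PNU-282987 were close for these 4 genes and sham was above both. S100a9, which the list of the epidermal differentiation complex further on shares, had another pattern. It had 718 sham, 34 excision and 617 PNU-282987 counts, and excision alone was low (20.1-fold lower [14.2 to 29.2]). Ltf (920 and 995 counts) and Lcn2 (270 and 206 counts), which corneal epithelium can also make, were within 2-fold. Haemoglobin transcripts moved in the same direction: their 4 genes were all lower, 1 of them measured only through sham, with a summed level of 61.6 CPM (sham), 11.5 (excision) and 2.55 (PNU-282987). Whether blood left in the tissue had a part in the neutrophil values was not tested. Car1, a carbonic anhydrase of red cells, measured only through excision, went the other way at 1 sham, 81 excision and 1 PNU-282987 counts (85.2-fold higher in excision [14.9 to 3407]).

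In the epithelium, genes of corneal identity were close to equal. Of 25 measured 24 were within 2-fold, with a median log2 ratio of 0.23. Krt12 had 1541851 sham and 1135144 excision counts (1.29-fold lower [1.29 to 1.29]), Pax6, the transcription factor gene of eye development, 22930 and 20945 counts (1.04-fold lower [1.02 to 1.06]), and the basal keratin gene Krt5 693158 and 724199 counts (1.1-fold higher [1.1 to 1.1]). Krt14, the basal partner of Krt5, had 9011 sham and 16496 excision counts (1.93-fold higher [1.88 to 1.98]), just under the threshold. Tfap2b, a transcription factor gene also used in stroma and endothelium, was the one member called, and was lower (865 and 328 counts, 2.51-fold lower [2.2 to 2.86]).

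Other keratins differed more, with 6 of 20 measured higher and 2 lower, and 1 of the 6 measured only through excision. Krt15 (gene ID 16665), of limbal and basal cells, had 65935 sham, 137853 excision and 241041 PNU-282987 counts (2.2-fold higher in excision [2.18 to 2.22]). Krt4, of conjunctival and other mucosal epithelium, had 3013 sham, 14142 excision and 21643 PNU-282987 counts (4.94-fold higher in excision [4.75 to 5.14]). Krt19, of limbus and conjunctiva, had 2942 sham, 6819 excision and 6825 PNU-282987 counts (2.44-fold higher in excision [2.33 to 2.55]). Krt17, a wound-induced keratin gene, had 93 sham, 397 excision and 907 PNU-282987 counts (4.49-fold higher in excision [3.57 to 5.69]), whereas Krt16, its usual companion in wounds, was lower at 979 sham, 326 excision and 2546 PNU-282987 counts (2.85-fold lower in excision [2.52 to 3.25]). Krt75 (575 and 1174 counts, 2.15-fold higher [1.94 to 2.38]), whose call scaling to epithelial genes ended, and, on few counts, Krt84 (5 and 28 counts) were higher, and Krt18 of simple epithelium was lower (238 and 113 counts, 2.0-fold lower [1.59 to 2.53]). For Krt15, Krt4 and Krt19 the PNU-282987 library was near or above excision, so sham was the lowest of the 3. Krt13, the other mucosal keratin, was under 2-fold (78979 and 114747 counts). Goblet cell genes beside these were Muc5ac, given above, Agr2 with 49 sham, 133 excision and 1817 PNU-282987 counts and Spdef with 22 sham, 4 excision and 94 PNU-282987 counts, and their part in the keratin values was not tested.

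The epidermal differentiation complex, a gene cluster for the late stages of keratinization, had 7 of 22 measured genes lower and none higher, 4 of the 7 measured only through sham. Lce3a, of the late cornified envelope, had 3297 sham, 825 excision and 2217 PNU-282987 counts (3.8-fold lower in excision [3.52 to 4.1]). Lce3b had 205 sham, 12 excision and 71 PNU-282987 counts (16.2-fold lower in excision [9.1 to 31.9]), and S100a7a, an antimicrobial S100 protein gene, had 3781 sham, 1382 excision and 2949 PNU-282987 counts (2.6-fold lower in excision [2.44 to 2.77]). Crnn (33 and 6 counts, 5.23-fold lower [2.16 to 15.3]) followed on lower counts. The list shares S100a9, given above, with the neutrophil list, and it had the lowest ratio in both. Ivl (373 and 325 counts), for involucrin, and Sprr1a (436 and 431 counts) were within 2-fold, and Flg, for filaggrin, had no count in either library. The Lce3 genes are similar and may exchange reads. In the list of cornified-layer enzymes, the epidermal lipoxygenase gene Alox12e was higher (165 sham, 1731 excision and 825 PNU-282987 counts, 11-fold higher in excision [9.4 to 13]). Alox15, another lipoxygenase gene on that list, was higher too (57 sham, 505 excision and 122 PNU-282987 counts, 9.32-fold higher in excision [7.08 to 12.5]). Tgm1, the envelope cross-linking enzyme gene, was within 2-fold (1860 and 2419 counts).

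Most cell junction genes were close between the libraries, with 33 of 36 measured within 2-fold. Cldn10, a claudin that forms ion-selective pores, was lower with 2889 sham, 295 excision and 2033 PNU-282987 counts (9.31-fold lower in excision [8.25 to 10.5]), and so was Pkp2 (192 and 72 counts, 2.53-fold lower [1.92 to 3.37]). Cldn5, a claudin of blood vessels, measured only through excision, was higher (18 and 42 counts). Other plaque protein genes, chosen after their values were seen, were above equal levels without reaching 2-fold: Ppl, for periplakin, had 84871 and 127469 counts (1.58-fold higher [1.57 to 1.59]), Evpl, for envoplakin, 62404 and 93851 counts (1.58-fold higher [1.57 to 1.6]), Jup 35787 and 50282 counts and Dsp 77643 and 98760 counts. Connexin genes were within 2-fold, with Gja1 at 7287 and 6140 counts.

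Membrane mucins, which hold the tear film on the surface cells, included 2 of the called genes with the largest CPM difference. Muc4 (gene ID 140474) had 50645 sham, 100816 excision and 41394 PNU-282987 counts (2.09-fold higher in excision [2.07 to 2.12]), a call that was lost when counts were scaled to totals or to epithelial genes. Muc21 had 24840 sham, 55543 excision and 15894 PNU-282987 counts (2.35-fold higher in excision [2.32 to 2.39]). Muc1 had 590 sham, 2445 excision and 1619 PNU-282987 counts (4.36-fold higher in excision [3.98 to 4.78]). Muc4 and Muc21 were highest in excision among the 3 libraries. Lgals9, for a galectin that interferon induces, was higher (510 and 2068 counts, 4.27-fold higher [3.87 to 4.71]), and Lgals3, for the galectin that cross-links membrane mucins, was within 2-fold (48021 and 47593 counts). Over the list, 5 of 24 measured genes were higher and 2, both measured only through sham, lower.

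Of 18 measured water and ion transport genes 6 were lower, 2 of them (Scnn1g and Slc26a4) measured only through sham, and none higher. The epithelial aquaporin genes Aqp5 (234339 and 243455 counts) and Aqp3 (46117 and 54775 counts) were within 2-fold, and Aqp1, of stroma and endothelium, was lower (21396 and 7970 counts, 2.55-fold lower [2.49 to 2.62]). The epithelial sodium channel has 3 subunits: Scnn1b (114 and 20 counts, 5.42-fold lower [3.35 to 9.2]) and Scnn1g (38 and 12 counts, 3.01-fold lower [1.54 to 6.33]) were lower, and Scnn1a had 1523 and 2255 counts, within 2-fold. Slc26a4, for the anion exchanger pendrin (22 and 3 counts), and Kcnk1, for a potassium leak channel (269 and 110 counts, 2.32-fold lower [1.86 to 2.93]), were lower as well. Genes of the hyperosmolar response, by which cells meet concentrated tears, were near equal: 14 of 15 measured were within 2-fold, with Nfat5, its transcription factor gene, at 4331 and 4482 counts, and the taurine transporter gene Slc6a6 at 10350 and 15306 counts. Aqp1 was the exception.

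Stromal genes were lower in part. Of 29 measured 7 were lower and 3 higher (median log2 ratio -0.41), and the 3 higher ones were measured only through excision, so the minimum fixed their direction. Kera (gene ID 16545), for keratocan, the keratan sulphate proteoglycan of keratocytes, had 7395 sham, 3217 excision and 3716 PNU-282987 counts (2.18-fold lower in excision [2.1 to 2.28]). Lum (6358 and 3708 counts) and Dcn (25935 and 15632 counts), for lumican and decorin, were below sham without reaching 2-fold. Ogn, for osteoglycin, had 1463 sham and 392 excision counts (3.55-fold lower [3.17 to 3.98]), and Chst5, which sulphates keratan, 2370 sham and 656 excision counts (3.43-fold lower [3.15 to 3.75]). Thbd, for the anticoagulant receptor thrombomodulin, had the largest ratio among the lower members (817 and 170 counts, 4.57-fold lower [3.87 to 5.42]). Thy1, a fibroblast and T cell surface marker, was higher at 9 sham, 111 excision and 17 PNU-282987 counts (13-fold higher in excision [6.59 to 29.1]), and Omd and Podn were higher on few counts (10 and 28 counts and 18 and 36 counts), the latter not when scaled to epithelial genes.

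Of 30 measured collagen genes 9 were lower, 1 of them measured only through sham, and 1, measured only through excision, was higher. The fibrillar collagen genes Col1a1 (10154 and 9332 counts) and Col5a1 (1081 and 669 counts) were within 2-fold, as was Col6a1 (2879 and 2271 counts), of the microfibrils. The basement membrane collagen IV genes were lower in 5 of 6 cases, the exception being Col4a5 (962 and 503 counts, 1.82-fold lower [1.63 to 2.03]). Col4a4 had 1840 sham, 279 excision and 891 PNU-282987 counts (6.27-fold lower in excision [5.52 to 7.14]) and Col4a3 2375 sham, 399 excision and 803 PNU-282987 counts (5.66-fold lower in excision [5.09 to 6.31]). Col4a1 (1788 and 494 counts, 3.44-fold lower [3.11 to 3.81]) and Col4a2 (1311 and 338 counts, 3.69-fold lower [3.27 to 4.17]) were lower by less. The collagen VIII genes of Descemet's membrane, on which the endothelium rests, were lower, with Col8a1 at 2028 sham, 272 excision and 1603 PNU-282987 counts and Col8a2 at 12972 sham, 2555 excision and 7930 PNU-282987 counts. Col12a1, which links fibrils, was lower (6612 and 2148 counts, 2.93-fold lower [2.79 to 3.07]). Col17a1, of the epithelial hemidesmosome, had 29875 and 34402 counts, and Col7a1, of anchoring fibrils, 858 and 1071 counts, both within 2-fold. Col9a3 was the one higher member (10 and 65 counts, 6.84-fold higher [3.49 to 14.9]).

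Of 25 measured myofibroblast and matricellular genes, 5 were lower and 1 higher. Acta2, for smooth muscle actin and the marker of myofibroblasts, had 176 and 109 counts, within 2-fold, as did Fn1, for fibronectin (5239 and 5572 counts). Cthrc1 (475 and 104 counts, 4.34-fold lower [3.5 to 5.42]) and Thbs1 (2016 and 794 counts, 2.41-fold lower [2.22 to 2.62]) were among those lower, and Tnc, for tenascin C, was higher (22 and 70 counts). Of the metalloproteinases, Mmp3, which cleaves matrix and other proenzymes, had 97 sham, 505 excision and 116 PNU-282987 counts (5.48-fold higher in excision [4.4 to 6.88]), and Mmp10, its nearest relative, measured only through sham, went the other way (52 and 7 counts, 7.06-fold lower [3.19 to 18.4]). Timp3, a matrix-bound inhibitor, was lower (3731 and 1462 counts, 2.43-fold lower [2.28 to 2.58]). Mmp9, often measured in dry eye, had 4 and 3 counts and was under the minimum. Among serpins, Serpine2 (24 and 131 counts, 5.74-fold higher [3.7 to 9.28]), Serpinb3a (256 and 1308 counts, 5.38-fold higher [4.7 to 6.17]), Serpina3n (33 and 93 counts, 2.96-fold higher [1.97 to 4.55]) and Serpinb10 (29 and 77 counts, 2.79-fold higher [1.8 to 4.44]) were higher. Of 27 measured integrin and laminin genes 4 were higher, all measured only through excision, and 4 lower, 2 of them measured only through sham, and the epithelial pair Itga6 (7569 and 8314 counts) and Itgb4 (4669 and 6083 counts) was within 2-fold.

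Endothelial genes were lower in 12 of 18 cases, 1 of them measured only through sham, and higher in 1, with a median log2 ratio of -1.45. Slc4a11 (gene ID 269356), the transporter mutated in a corneal endothelial dystrophy, had 6183 sham, 1577 excision and 2379 PNU-282987 counts (3.73-fold lower in excision [3.53 to 3.94]). Slc4a4, the bicarbonate cotransporter of the pump, had 1099 sham and 185 excision counts (5.65-fold lower [4.83 to 6.63]), and Atp1b1, the sodium pump's beta subunit gene, 4190 sham and 731 excision counts (5.45-fold lower [5.04 to 5.9]). Slc16a3, a lactate exporter, had 138 sham, 16 excision and 20 PNU-282987 counts (8.2-fold lower in excision [4.87 to 14.7]). Foxc1, a transcription factor gene of the neural crest-derived layers, was within 2-fold above sham (2262 and 3541 counts). Car12 was the higher member (27 and 87 counts, 3.39-fold higher [2.18 to 5.43]).

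Genes of neighbouring eye tissues were lower in the same library. Of 20 measured lens genes 18 were lower, 12 of the 20 measured only through sham, and the summed level was 903 CPM (sham), 172 (excision) and 809 (PNU-282987). Crybb1 had 504 sham, 3 excision and 396 PNU-282987 counts, and Lgsn, for the lens protein lengsin, 229 sham, 2 excision and 167 PNU-282987 counts (109-fold lower in excision [29.8 to 904]). Mip, the aquaporin of lens fibre cells, had 76 sham, 0 excision and 85 PNU-282987 counts and, against the floor of 3 counts, was 24.1-fold lower in excision. Cryab, which many tissues express, had 8578 and 5483 counts, within 2-fold. Of 13 measured genes of retina and uvea 8 were lower, but 6 of the 13 were measured only through sham, and the median log2 ratio of -1.51 became -0.57 where both libraries had to reach the minimum. The pigment cell gene Pmel was within 2-fold (107 and 115 counts). Blood and lymph vessel genes went both ways, with Flt4 of lymphatic vessels higher (15 and 54 counts, 3.79-fold higher [2.11 to 7.23]), though measured only through excision, and Kdr lower (144 and 55 counts, 2.49-fold lower [1.81 to 3.46]). Skeletal muscle genes were near 0, with Ckm at 1 and 1 counts. How much of the inner cornea or attached tissue entered each preparation was not measured. Its part in the stromal and endothelial values was not tested.

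**Figure D3:**
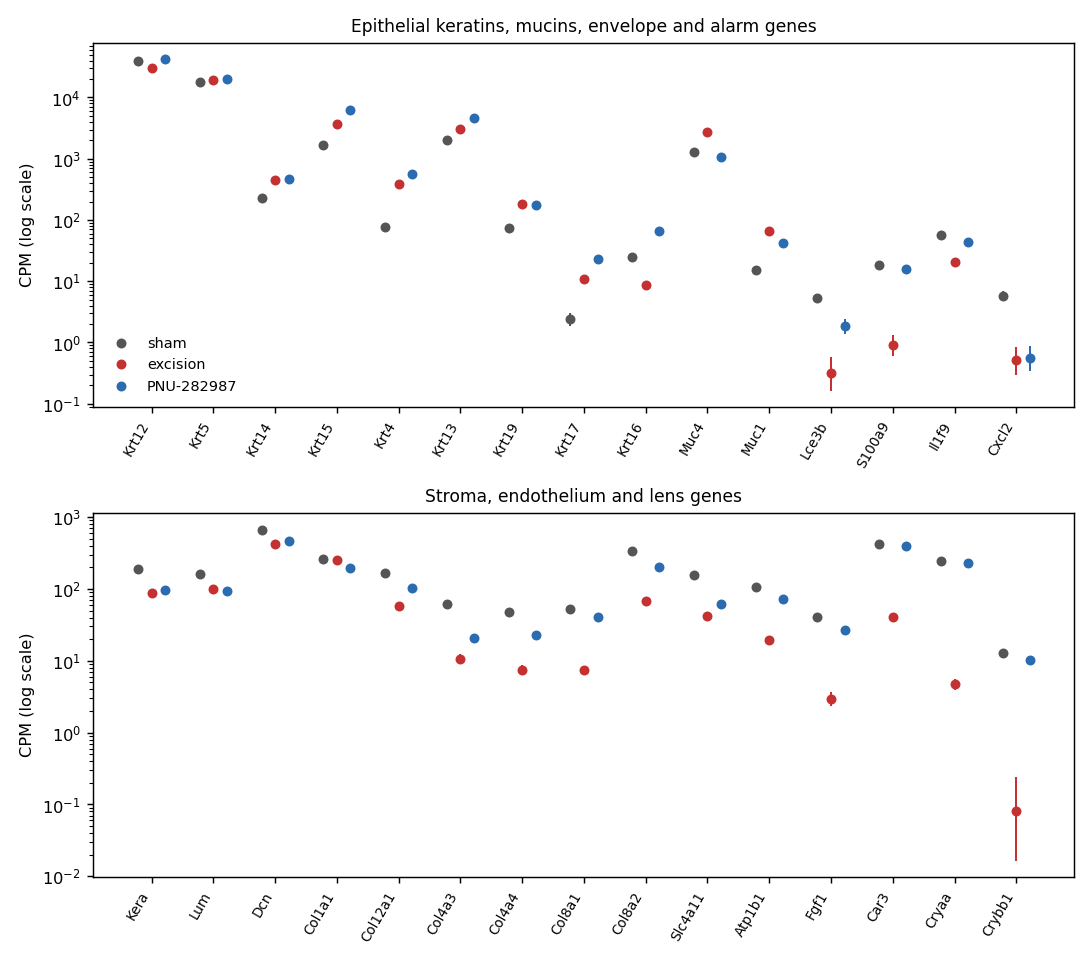
CPM (log scale) of epithelial and alarm genes (top) and of stroma, endothelium and lens genes (bottom) in sham (grey), excision (red) and PNU-282987 (blue), 1 library each, with 95% counting intervals. Krt12 and Krt5 are close in all 3 libraries, and excision is lowest for the endothelial genes from Col8a1 to Atp1b1 and for the lens genes.

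Genes of growth factor signalling were lower more often than higher. Of 28 measured genes of FGF, PDGF, IGF, HGF and VEGF signalling, 7 were lower and 2 higher, 1 in each direction (Pdgfd and Vegfd) measured through 1 library only. Fgf1 (gene ID 14164) had 1594 sham, 108 excision and 1044 PNU-282987 counts (14-fold lower in excision [11.5 to 17.2]), and Fgf10, a stromal factor that acts on epithelium, 1035 sham, 137 excision and 838 PNU-282987 counts (7.18-fold lower in excision [6.0 to 8.65]). Pdgfd (114 and 13 counts, 8.34-fold lower [4.68 to 16.1]), Igf1 (112 and 35 counts, 3.04-fold lower [2.06 to 4.58]) and Fgfr1 (866 and 387 counts, 2.13-fold lower [1.88 to 2.4]) were lower too. Igfbp6, a binding protein for IGF2, was higher (50 and 190 counts, 4.0-fold higher [2.91 to 5.57]). For Fgf1 and Fgf10 the PNU-282987 library was nearer to sham than to excision. The part of inner cornea or attached tissue in these values was not tested.

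Calls in the Wnt, TGF-beta and BMP lists included genes of secreted antagonists. Dkk1, which blocks Wnt co-receptors, had 234 sham, 15 excision and 97 PNU-282987 counts (14.8-fold lower in excision [8.81 to 26.9]). Fst, for follistatin, had 468 sham, 50 excision and 299 PNU-282987 counts (8.9-fold lower in excision [6.64 to 12.2]), and Nog, for noggin, 37 sham, 2 excision and 23 PNU-282987 counts (17.6-fold lower in excision [4.54 to 151]). Tgfb2, the isoform of the eye's anterior chamber, was lower (144 and 48 counts, 2.85-fold lower [2.04 to 4.04]). In the Wnt list 2 of 35 measured were lower (5.71%), both measured only through sham, and 1 higher. In the TGF-beta and BMP list 5 of 32 were lower (15.6%), 2 of them (Nog and Chrd) measured only through sham. In the Notch list 1 of 16 was lower (6.25%), measured only through sham. Of all measured genes 5.42% were lower. The Wnt effector gene Ctnnb1 had 22151 and 21098 counts and the TGF-beta effector gene Smad3 1539 and 1634 counts. None of 11 measured EGF family genes was called, and Egfr had 4289 and 4972 counts. Transcription factor genes of the periocular mesenchyme were lower in 4 of 13 measured cases and higher in 2, both of those measured only through excision, with Prrx1 at 549 and 228 counts (2.29-fold lower [1.96 to 2.68]). Of 16 imprinted growth genes Sgce (270 and 63 counts, 4.07-fold lower [3.09 to 5.45]), Nnat (91 and 38 counts) and H19 (27 and 11 counts) were lower, H19 measured only through sham.

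Of 10 measured genes of neurons and sensory channels 1 was higher and 1 lower, P2rx3 (18 and 47 counts) and Uchl1 (41 and 17 counts), each measured through 1 library only. Of 7 measured Schwann cell genes Ncam1 was lower (572 and 185 counts, 2.94-fold lower [2.49 to 3.49]). The mechanosensor gene Piezo2 (2099 and 1998 counts) and the cold receptor gene Trpm8 (0 and 1 counts) showed no call, the latter for lack of counts. Slit2, an axon repellent gene, was lower at 942 sham, 118 excision and 371 PNU-282987 counts (7.59-fold lower in excision [6.26 to 9.27]). Sema3a (146 and 65 counts, 2.14-fold lower [1.58 to 2.91]), Nrp2 (221 and 76 counts, 2.76-fold lower [2.12 to 3.64]) and Ntrk3 (120 and 43 counts, 2.65-fold lower [1.86 to 3.85]) were lower as well, while the other semaphorin and plexin genes with over 1000 counts in both libraries, such as Sema3f (3735 and 4657 counts) and Plxnb1 (5185 and 7388 counts), were within 2-fold. Chrna7, for the α7 receptor, had 11 sham, 2 excision and 9 PNU-282987 counts and was below the count minimum. The Ly6 proteins that modulate nicotinic receptors were measured far better: Ly6e was higher (10561 and 26267 counts, 2.62-fold higher [2.56 to 2.68]), and Slurp1 (97602 and 102824 counts) and Lynx1 (12652 and 13129 counts) were within 2-fold.

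Clock genes cycle over the day, and the labels do not give the hour at which tissue was taken. Of 20 measured clock genes 2 were higher and none lower. Per1 had 776 sham, 2225 excision and 1468 PNU-282987 counts (3.02-fold higher in excision [2.78 to 3.28]). Per2 had 518 sham, 988 excision and 1523 PNU-282987 counts (2.01-fold higher in excision [1.8 to 2.24]), and its call was lost when counts were scaled to totals or to epithelial genes. Arntl, for BMAL1, which cycles opposite to the Per genes, had 903 sham, 615 excision and 165 PNU-282987 counts, and was 1.4-fold lower [1.26 to 1.55], under 2-fold. Nr1d1 had 6023 sham, 8786 excision and 3968 PNU-282987 counts and Dbp 3814 sham, 5159 excision and 5677 PNU-282987 counts, both under 2-fold between excision and sham. Arntl was lowest in PNU-282987 and Per2 was highest there, so the 3 libraries differed in these genes in their own order.

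Per1 is also on the list of glucocorticoid-responsive genes and metallothioneins. Of 16 measured genes of that list 2 were higher and none lower, and 12 lay above equal levels. Scaling to totals gave 1 higher and 1 lower. Fkbp5 (3211 and 3302 counts), Tsc22d3 (3701 and 6155 counts) and the metallothionein gene Mt1 (4150 and 5278 counts) were within 2-fold. Immediate early genes, which respond within minutes to handling, injury or growth factors, had 4 of 27 measured members higher, 1 of them measured only through excision, and 1, measured only through sham, lower. Fosb had 105 sham, 318 excision and 77 PNU-282987 counts (3.19-fold higher in excision [2.55 to 4.01]), Atf3 71 sham, 166 excision and 40 PNU-282987 counts (2.46-fold higher in excision [1.85 to 3.3]) and Dusp1, a MAP kinase phosphatase gene, 2135 sham, 4228 excision and 2200 PNU-282987 counts (2.08-fold higher in excision [1.98 to 2.2]). The Dusp1 call was lost under scaling to totals or to epithelial genes. Fos (1844 and 2106 counts), Jun (2038 and 2075 counts) and Egr1 (341 and 486 counts) were within 2-fold. Excision was highest for Fosb, Atf3 and Dusp1 among the 3 libraries.

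Genes of DNA replication and of mitosis lay on opposite sides of equal levels. Of 35 replication genes 33 were above equal levels, with a median log2 ratio of 0.57, and 3 were called higher. Mcm2, a subunit of the replicative helicase, had 539 sham, 1159 excision and 1038 PNU-282987 counts (2.26-fold higher in excision [2.04 to 2.51]), E2f1, the transcription factor gene for S phase, 187 sham, 376 excision and 207 PNU-282987 counts (2.12-fold higher in excision [1.77 to 2.53]) and Chaf1a, of chromatin assembly, 297 sham, 578 excision and 431 PNU-282987 counts (2.05-fold higher in excision [1.78 to 2.36]). All 6 genes of the MCM helicase were above equal levels, with Mcm3 at 570 and 1076 counts (1.99-fold higher [1.79 to 2.2]). Of 40 mitosis genes 35 were below equal levels, with a median of -0.40, and 1 was called. Cdc20, the activator of the anaphase-promoting complex, had 802 sham, 345 excision and 484 PNU-282987 counts (2.21-fold lower in excision [1.95 to 2.51]). Mki67 had 2097 sham, 1513 excision and 919 PNU-282987 counts (1.32-fold lower in excision [1.23 to 1.41]) and Top2a 1416 sham, 1214 excision and 1038 PNU-282987 counts (1.11-fold lower in excision [1.03 to 1.2]). With scaling to total counts or to epithelial genes, 31 of the 35 replication genes stayed above and 38 of the 40 mitosis genes below equal levels, and of the calls Chaf1a was lost under both scalings and E2f1 under the latter. Mitosis genes were lower still in PNU-282987 by their summed level, at 684, 554 and 464 CPM in the order sham, excision, PNU-282987, and replication genes were at 564, 782 and 739 CPM.

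All 79 cytosolic ribosomal protein genes were above equal levels in excision and none was called, with a median log2 ratio of 0.31. Rpl41 had 73887 and 104301 counts (1.49-fold higher [1.47 to 1.5]) and Rps14 72575 and 105564 counts (1.53-fold higher [1.52 to 1.54]). With scaling to total counts 76 of the 79 were above equal levels, and with scaling to epithelial genes 74. Their summed level was 85477 CPM (sham), 106376 (excision) and 76923 (PNU-282987). The nuclear subunits of oxidative phosphorylation gave no call among 56 genes (median 0.07), and none was found among 30 genes of glycolysis and the pentose phosphate pathway (-0.07) or 35 of cholesterol and fatty acid synthesis (0.11).

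**Figure D4:**
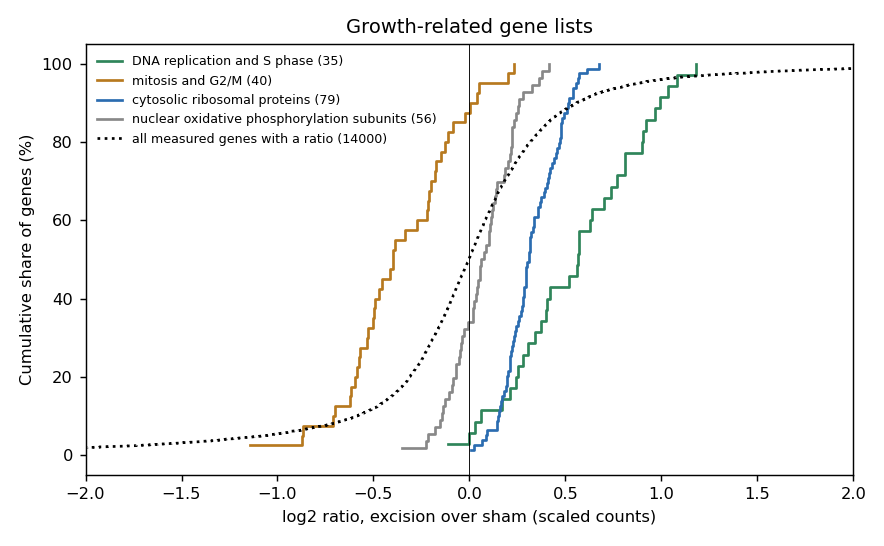
Cumulative share of genes (y axis, percent) by log2 ratio of excision over sham (x axis) for 4 lists and for all measured genes (dotted). The mitosis curve lies to the left of the dotted one over most of its length, and the ribosomal and replication curves lie to its right over most of theirs.

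Stress and detoxification genes gave few calls. None of 20 unfolded protein response genes was called, and Hspa5, for the chaperone BiP, had 10806 and 9110 counts. Of 32 measured heat shock genes Hspb8 was higher (42 and 140 counts, 3.51-fold higher [2.47 to 5.08]) and Hsph1 lower (1244 and 514 counts, 2.3-fold lower [2.07 to 2.55]). Of 40 antioxidant genes Sod3, for the extracellular superoxide dismutase, was lower (1243 and 585 counts, 2.02-fold lower [1.83 to 2.23]), and Nqo1 (2686 and 2162 counts) and Hmox1 (73 and 74 counts), targets of NRF2, were within 2-fold. The aldehyde dehydrogenases and other enzymes that serve as corneal crystallins were all within 2-fold in 14 genes, with Aldh3a1 at 671828 and 651430 counts. Of 19 measured cytochrome P450 genes Cyp2a5 was higher at 433 sham, 1347 excision and 3198 PNU-282987 counts (3.27-fold higher in excision [2.93 to 3.66]), with sham the lowest of the 3 libraries. Among prostaglandin genes Ptgs2, for the inducible cyclooxygenase (40 and 17 counts), Ptgis, for prostacyclin synthase (668 and 209 counts, 3.04-fold lower [2.6 to 3.57]), Ptgds (263 and 77 counts) and Ptger3, for a prostaglandin E receptor of sensory nerves (28 and 3 counts, 8.87-fold lower [2.74 to 45.6]), were lower, and Ptger1 was higher (101 and 207 counts, 2.16-fold higher [1.69 to 2.76]). Ptgs2 and Ptger3 were measured only through sham. Arg1, for arginase, had 9388 and 10958 counts, within 2-fold.

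**Figure D5:**
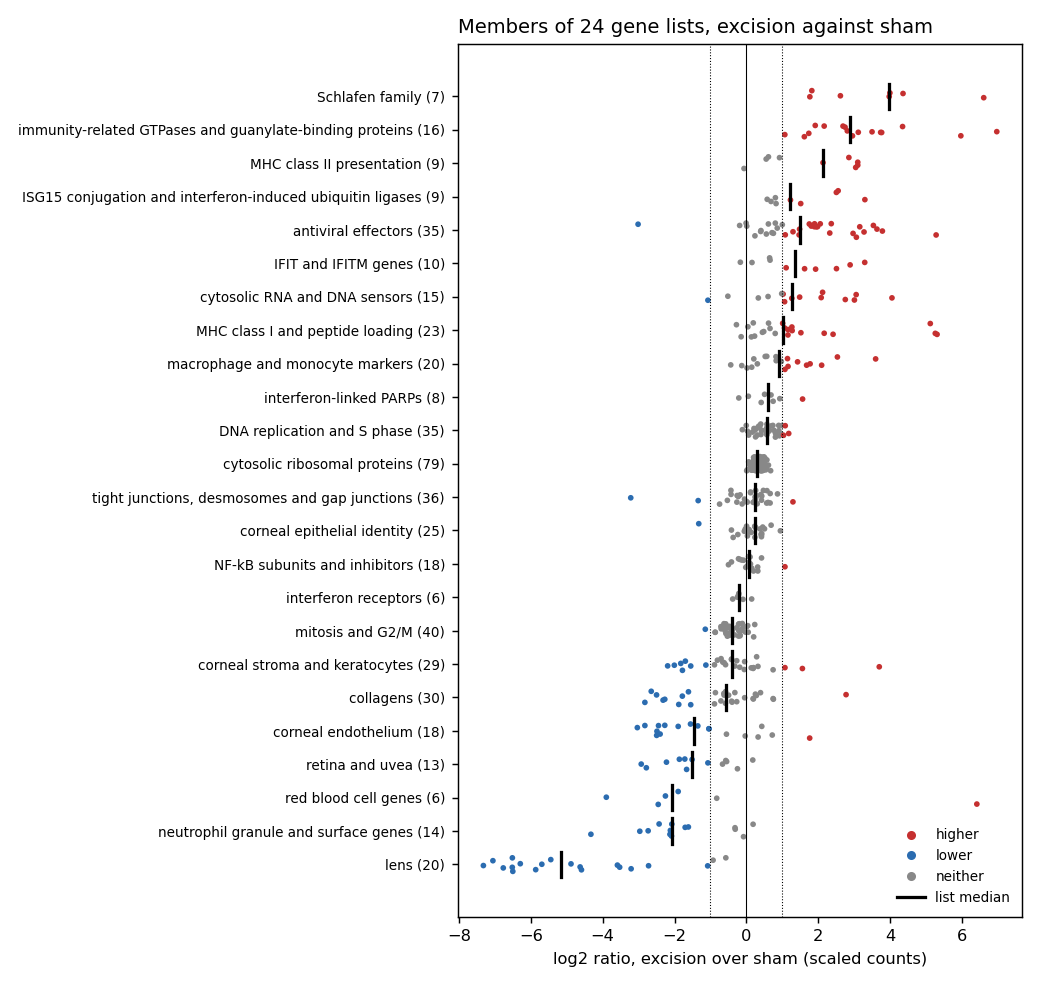
Log2 ratio of excision over sham (x axis) for each measured member of 24 gene lists, with the number of members in parentheses, called genes in red (higher) or blue (lower) and the list median as a black bar. Dotted lines mark 2-fold, and members at 0 in 1 library stand at their bound.

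Measured by the amount of transcript, in CPM that are not corrected for gene length, the largest gains among called genes were those of Krt15, Muc4, Muc21, Ly6a, Isg15, Ifit3, Ly6e, H2-K1, B2m and Ifi27l2a. Ly6a, for the interferon-inducible surface protein Sca-1, had 10648 sham, 32071 excision and 17067 PNU-282987 counts (3.17-fold higher in excision [3.1 to 3.24]). The largest losses among called genes were those of Car3, Bsg, Aqp1, Col8a2, Cryaa, Apoe, Crybb2, Slc4a11, Npnt and Col12a1. Car3 (gene ID 12350), for a carbonic anhydrase, had 16340 sham, 1519 excision and 15454 PNU-282987 counts (10.2-fold lower in excision [9.7 to 10.8]). Bsg, for basigin, which brings lactate transporters to the cell surface, had 26676 sham, 12522 excision and 23482 PNU-282987 counts (2.02-fold lower in excision [1.98 to 2.07]). Apoe, for a lipid carrier, had 14805 sham, 7033 excision and 12696 PNU-282987 counts (2.0-fold lower in excision [1.94 to 2.06]), and Npnt, for a basement membrane ligand of integrins, 5213 sham, 692 excision and 2299 PNU-282987 counts (7.16-fold lower in excision [6.61 to 7.76]). For all 4 genes the excision library had the smallest count of the 3. Between them the lists used here held 183 of the 557 genes called higher and 151 of the 759 called lower, and 126 and 97 were gene models or pseudogenes.

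Calls were more frequent among non-coding genes, which have lower counts, with 9.93% of 1057 higher and 8.14% lower, beside 3.49% and 5.20% of 12943 coding genes. The nuclear-retained RNAs Malat1 (23536 and 30640 counts) and Neat1 (32936 and 47199 counts) were above sham without reaching 2-fold. Y-linked genes were present in all 3 libraries (Ddx3y had 1645 sham, 1393 excision and 1482 PNU-282987 counts), and Xist was scarce in all (24 sham, 21 excision and 21 PNU-282987 counts).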

How the data were processed

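RNA from mouse cornea was measured in 3 libraries, 1 per group, and the sham and excision libraries were compared. Gene-level read counts, whole numbers and not normalized, come from 1 table that the authors deposited. HTSeq and R 3.2.0 are listed, without their roles, per the submitters' processing notes. Aligner, genome build, annotation and strand setting: not given in the sources used here. Overlapping, antisense and near-identical genes can exchange reads. TRIzol extraction and a VAHTS library kit were used, per the labels' protocols.

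Counts were scaled with TMM factors (edgeR 4.0.16, R 4.3.3) of 1.04 (sham), 0.985 (excision) and 0.980 (PNU-282987). Genes with at least 20 counts in either compared library were kept. A count of 0 was set to a floor of 3 counts. Such folds depend on that floor and leave out counting error in the other library. A ratio against 0 was left out if the other count did not exceed 3. Intervals are exact conditional binomial (Clopper-Pearson) 95% intervals. Only counting error enters them, and PCR copies are not separated by molecular identifiers. The scheme was tested on simulated counts with known ratios. These held counting error only, so they say nothing of the spread between animals. Computation used Python 3.11.15, NumPy 2.4.6, pandas 2.3.3, SciPy 1.17.1 and matplotlib 3.10.9, and DESeq2 1.42.0 gave alternative size factors.

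Values were described over 78 gene lists, of whose 1948 distinct genes 1812 were in the table. The members and lists were chosen with earlier results of these data known. Named genes were the 10 called genes per direction with the largest ratio (at least 100 counts in the higher library) and the 10 with the largest CPM difference, up to 6 called members per list and direction, the 3 most abundant members of a list, and key genes of each pathway. Gene models, pseudogenes and receptor segments were counted without being named. Other named genes, mostly members within 2-fold, were chosen after their values were seen, and not every gene meeting the rule is reported here. Promoters came from RefSeq (GRCm38.p6), matched by gene ID.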

Additional observations from a re-analysis of the deposited data

How the results depend on the processing

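Of the 557 genes higher and 759 lower in excision, scaling to total counts gave 499 and 817, DESeq2 size factors 556 and 759, TMM over the 2 compared libraries 557 and 759, and scaling to the epithelial list without Krt12 478 and 857. That last scaling moved the median log2 ratio of all measured genes by -0.105, and the log2 ratios of all lists and genes with it. The counts depended more on filters and thresholds, by construction. With genes from 1 count upwards, 948 were higher and 1077 lower. With at least 20 counts in both libraries they were 294 and 377, and with at least 100 counts in either library 225 and 305. A 1.5-fold threshold gave 1155 and 1263, a 4-fold threshold 177 and 275, and 99% intervals 504 and 693. Without the lens, retina, endothelial, gland, muscle, red cell and neutrophil lists 555 and 704 remained. The share of higher genes among those called stayed between 35.8% and 47.8%. Of 78 list medians 7 changed sign under scaling to total counts and 9 under the epithelial scaling, and 5 of 76 did when both libraries had to reach 20 counts, all without crossing 2-fold, and none of 80 named genes did. No paired analysis was possible because each group has 1 library. With 1 library per group no library could be left out, and no spread between animals was measured. A count of 0 allows up to 0.0768 CPM in sham and 0.0808 in excision.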

Other observations

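Sets of genes outside the lists above were gathered after their values had been seen, so their counts describe these 2 libraries and support nothing. Hypoxia-inducible genes had 8 of 32 measured members lower and none higher (median log2 ratio -0.37), 1 of the 8, Slc16a3, measured only through sham. Car9, a hypoxia-induced carbonic anhydrase gene, had 392 sham, 56 excision and 268 PNU-282987 counts (6.65-fold lower in excision [5.02 to 8.97]), and Slc16a3, a lactate transporter gene that the endothelial list also holds, 138 sham, 16 excision and 20 PNU-282987 counts. Adm, for the vasodilator adrenomedullin, had 256 sham, 50 excision and 81 PNU-282987 counts (4.87-fold lower in excision [3.58 to 6.73]), Ndufa4l2 401 sham, 92 excision and 162 PNU-282987 counts (4.14-fold lower in excision [3.3 to 5.26]) and Plod2, a collagen-modifying enzyme gene, 107 sham, 24 excision and 72 PNU-282987 counts (4.24-fold lower in excision [2.7 to 6.9]). The glycolytic members Pdk1 (3368 and 2727 counts in sham and excision) and Slc2a1 (1836 and 1151 counts) and the sensor gene Egln3 (46908 and 36258 counts) were within 2-fold. The transcription factor genes went in opposite directions, with Hif1a at 3771 and 1814 counts (1.98-fold lower [1.87 to 2.09]) and Epas1 at 8677 and 14807 counts (1.8-fold higher [1.75 to 1.84]). The endothelial list was lower in the same library, and its part in these values was not tested.

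Genes of adventitial and loose connective tissue fibroblasts had 9 of 21 measured members higher and 1 lower, but 7 of the 9 were measured only through excision, so the minimum fixed their direction, and 8 of the 21 lay below equal levels. Their summed level was 1320.1 CPM in sham and 1407 CPM in excision. Igfbp6 and Myoc (25 and 118 counts, 4.97-fold higher [3.2 to 7.98]) were the higher members measured in both libraries. Of the others, Clec3b had 2 sham, 73 excision and 9 PNU-282987 counts (38.4-fold higher in excision [10.3 to 323]), Pi16 11 sham, 82 excision and 1 PNU-282987 counts (7.84-fold higher in excision [4.16 to 16.3]) and Ccn5 17 sham, 169 excision and 22 PNU-282987 counts (10.5-fold higher in excision [6.34 to 18.4]). Dpt (3959 and 2540 counts) and Apod (11523 and 10150 counts), which keratocytes also express, were within 2-fold, and Fbln2 was lower (368 and 172 counts, 2.03-fold lower [1.69 to 2.45]). Pan-leucocyte genes had 9 of 20 measured members higher and none lower, 4 of the 9 measured only through excision. Of those measured in both libraries, Cd52 had 35 sham, 129 excision and 38 PNU-282987 counts (3.88-fold higher in excision [2.65 to 5.81]) and Cd53 25 sham, 77 excision and 30 PNU-282987 counts (3.24-fold higher in excision [2.04 to 5.31]). Ptprc, for CD45, measured only through excision, had 6 sham, 36 excision and 17 PNU-282987 counts. Mitochondrially encoded genes gave no call among 13, and 10 were below equal levels.

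Neuropeptide Y (Npy), also named after its values were seen, had 3277 sham and 668 excision counts (4.66-fold lower [4.29 to 5.08]), and Ednrb, for an endothelin receptor, 2833 sham and 331 excision counts (8.14-fold lower [7.26 to 9.14]). Angpt2, for an angiopoietin, had 687 sham and 53 excision counts (12.3-fold lower [9.31 to 16.6]). On the higher side, Ccnd2, for a cyclin of the early cell cycle, had 2078 sham and 5851 excision counts (2.96-fold higher [2.82 to 3.12]), and Gpha2, a limbal epithelial marker, 1126 sham and 2332 excision counts (2.18-fold higher [2.03 to 2.34]).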
